A study of Homo sapiens with 2 samples.

Results

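NeuroD1 binding at the genes that start and carry out DNA replication was examined in IMR-32 cells, a MYCN-amplified human neuroblastoma cell line labelled as wild type. The 50 genes code for the proteins of replication origins and forks, and they were chosen by name from the 20037 protein-coding genes on the chromosomes of RefSeq (GRCh38.p14). A gene was counted as bound when a NeuroD1 peak overlapped its body or lay up to 3 kb from either end. Of the 50 genes, 16 had a peak, and these held 19 of the 6183 peaks in the list.

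The series comprises a NeuroD1 chromatin immunoprecipitation (ChIP) library and an input library of sheared chromatin taken without antibody. The peak list belongs to the ChIP library, the input library was not analysed here, and with no replicate no difference was tested across samples. Its label names a NeuroD1 antibody, whereas the supplementary ChIP-seq methods name an antibody to the acetylated histone H3K27Ac, and the reagent list of the study holds a NeuroD1 antibody. The peaks are used as labelled. Whether the antibody of the methods bears on the peaks was not tested. The median peak was 220 bp wide with a fold enrichment of 6.79, the ratio of ChIP to local background coverage, each with 1 added, at the summit or highest point of the peak. The summits were covered by 8 to 272 ChIP reads (median 17) as recovered from the deposited values, and the depth of the library is unknown.

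A replication origin is first bound by the origin recognition complex (ORC), and CDC6 and CDT1 then load the MCM helicase onto DNA. The CDC7 kinase with its partner DBF4 lets CDC45 and the GINS complex join the helicase, which then opens the double helix. Polymerase alpha with primase lays down primers, polymerases epsilon and delta extend the leading and lagging strands, and the RFC clamp loader, RPA, FEN1 and LIG1 complete the work. Many of these genes are textbook targets of the E2F factors, which switch on genes for S phase. NeuroD1 is a basic helix-loop-helix factor of neuronal differentiation that binds E-boxes, the sequence CANNTG, with a preference for a central GC or GA. The more specific E-boxes named below are all cases of CANNTG.

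Promoter sequences are shown for 7 of the 9 genes whose promoter windows lay under a peak, so that the letters of the peak inside the window can be read. The windows of POLE3 and CDC45, which also lay under a peak, are not shown. Some windows hold only part of the peak. Each window holds 250 bases before and 50 bases after the start, from RefSeq (GRCh38.p14), in the direction of the gene. Capitals mark every E-box (CANNTG) and every match to the E2F letters TTTCCCGC or TTTGGCGC on either strand, which read GCGGGAAA and GCGCCAAA on the other strand. Positions count the base of the start as 1 and are negative before it, and a motif is placed by its leftmost base.
POLE, chr12:132687293-132687592, minus strand: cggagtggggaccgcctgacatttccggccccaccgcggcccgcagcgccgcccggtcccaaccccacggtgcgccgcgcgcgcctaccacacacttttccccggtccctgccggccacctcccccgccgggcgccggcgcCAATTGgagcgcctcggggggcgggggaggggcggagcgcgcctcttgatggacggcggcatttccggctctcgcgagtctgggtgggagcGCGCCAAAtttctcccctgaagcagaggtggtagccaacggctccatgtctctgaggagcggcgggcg
ORC2, chr2:200963611-200963910, minus strand: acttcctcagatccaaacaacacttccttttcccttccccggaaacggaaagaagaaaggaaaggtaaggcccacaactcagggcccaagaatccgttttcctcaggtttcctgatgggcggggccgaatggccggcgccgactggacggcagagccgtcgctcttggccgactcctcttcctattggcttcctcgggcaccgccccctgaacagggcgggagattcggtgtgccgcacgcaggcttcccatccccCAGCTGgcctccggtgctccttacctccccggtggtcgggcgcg
MCM7, chr7:100101348-100101647, minus strand: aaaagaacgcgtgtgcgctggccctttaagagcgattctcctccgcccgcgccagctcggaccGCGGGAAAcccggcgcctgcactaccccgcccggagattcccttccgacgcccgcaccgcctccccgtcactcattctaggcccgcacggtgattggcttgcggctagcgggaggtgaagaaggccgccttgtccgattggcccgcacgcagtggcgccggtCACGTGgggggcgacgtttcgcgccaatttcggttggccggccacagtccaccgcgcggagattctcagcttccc
GINS3, chr16:58392221-58392520, plus strand: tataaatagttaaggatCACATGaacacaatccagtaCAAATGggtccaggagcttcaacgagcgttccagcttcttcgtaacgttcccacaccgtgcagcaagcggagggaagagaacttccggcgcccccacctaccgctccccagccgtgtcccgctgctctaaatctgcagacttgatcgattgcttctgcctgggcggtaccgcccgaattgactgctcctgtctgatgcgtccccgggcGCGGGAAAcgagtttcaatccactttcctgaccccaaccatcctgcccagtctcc
POLE2, chr14:49688165-49688464, minus strand: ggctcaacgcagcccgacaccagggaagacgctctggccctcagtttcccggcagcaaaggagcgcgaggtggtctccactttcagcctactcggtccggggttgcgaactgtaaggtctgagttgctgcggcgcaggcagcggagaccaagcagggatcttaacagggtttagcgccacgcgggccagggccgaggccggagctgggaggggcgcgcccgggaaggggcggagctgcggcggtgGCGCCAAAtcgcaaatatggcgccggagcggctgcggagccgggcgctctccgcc
TIPIN, chr15:66356636-66356935, minus strand: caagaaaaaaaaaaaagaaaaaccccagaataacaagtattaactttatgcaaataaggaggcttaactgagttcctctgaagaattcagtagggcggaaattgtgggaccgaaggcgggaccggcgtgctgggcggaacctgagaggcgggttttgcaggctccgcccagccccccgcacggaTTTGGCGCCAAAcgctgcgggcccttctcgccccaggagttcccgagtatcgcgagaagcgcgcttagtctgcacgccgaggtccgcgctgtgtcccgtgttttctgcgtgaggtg
RRM2, chr2:10122489-10122788, plus strand: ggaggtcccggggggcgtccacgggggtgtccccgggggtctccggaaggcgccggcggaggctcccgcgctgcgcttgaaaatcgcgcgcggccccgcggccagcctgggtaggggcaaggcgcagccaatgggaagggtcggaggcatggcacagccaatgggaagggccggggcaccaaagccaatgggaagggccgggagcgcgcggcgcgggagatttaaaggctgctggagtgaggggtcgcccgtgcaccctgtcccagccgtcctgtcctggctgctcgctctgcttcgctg

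Among the 9 genes whose promoter windows lay under a peak, 5 had an E-box in such a window, and in 2 of these the E-box was inside the called peak. At POLE the E-box CAATTG at position -109 lay 40 bp from the summit. At ORC2 the E-box CAGCTG at position 7 lay 19 bp from the summit. The E-box CACGTG of MCM7, at -25, was outside its peak, as were the CACATG and CAAATG of GINS3 and the CAAGTG and CACGTG of POLE3. No E-box was found in the windows under a peak of RRM2, POLE2, TIPIN or CDC45. Parts of peaks outside the windows were not searched, and at POLE2 133 of the 215 bases of the peak were inside. An E-box elsewhere in a peak would therefore not be counted here. Counted over windows, several of which overlap, 7 of the 14 under a peak held CANNTG (50%, exact Clopper-Pearson interval at 95%, 23.0% to 77.0%), against 26 of the 43 other windows of the 44 replication genes in the promoter table (60.5%). The 14 windows come from 9 genes and are not independent, whereas the exact intervals over windows in this paragraph take them as independent. Across the windows of all protein-coding genes the share was 65.1%, with 56.2% of 2454 windows under a peak and 66.2% of 19745 without. The windows under a peak had a median GC content of 68.0%, against 61.3% without, and windows without a peak at the same GC content held CANNTG in 60.1%. Of the forms with a central GC or GA, CAGCTG was present in 1 of the 14 windows and CAGATG in none, which allows a share of up to 23.2% (95% exact interval), against 18.7% and 8.23% of all windows under a peak and 18.0% and 12.2% of all windows. CAGATG was also searched as CATCTG, its other strand.

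The E2F letters were found in 18 of the 44 replication genes with a window (40.9%, exact interval at 95%, 26.3% to 56.8%). Of the 15843 protein-coding genes with a window, 3.70% held them, and this background lay below the interval. By window, 31.6% of the 57 and 2.79% of all 22199 held them. Of the 2165 protein-coding genes with a window under a peak, 5.64% held them, and by window the shares were 4.52% under a peak and 2.58% without. Of the 9 genes with a window under a peak, 5 had a match there (55.6%, 21.2% to 86.3%), and of the other 35, 13 had one (37.1%, 21.5% to 55.1%), so the intervals overlapped. The matches at these 5 genes lay inside the called peak, at POLE (-18), POLE2 (-5), MCM7 (-187), GINS3 (-5) and TIPIN, where TTTGGCGC at -66 and GCGCCAAA at -62 overlap in a palindrome 16 bp from the summit. A match is a description of the letters and not of a bound factor, and E2F binding was not measured here. Among the genes with the letters and no peak in or near the gene were CDC6, CDT1, GMNN, GINS1, GINS2, LIG1, MCM3, MCM6, MCM8, ORC3, POLA1 and RFC3. CDC7 had a peak and 2 matches, but its window ended before the peak.

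The 16 bound genes made up 32% of the 50 (95% interval, 19.5% to 46.7%, Clopper-Pearson), and 21.4% of all protein-coding genes were bound by the same rule. The replication genes were longer, with a median of 38.9 kb against 24.1 kb, and longer genes were bound more often, from 8.88% in the shortest of 10 equal classes of genes to 36.2% in the longest. With the background weighted to the lengths of the 50 genes, 23.0% were bound, which corresponds to 11.5 genes. Both backgrounds lay inside the interval, so the counting error of 50 genes covers the difference from genes of like length. With peaks in the gene body alone, 15 were bound (17.9% to 44.6%), and the weighted background of 17.4% lay just below that interval. The bound genes had a median length of 42.6 kb and the unbound genes of 36.7 kb. All 3 genes in the longest class were unbound, and the classes hold too few of the replication genes to compare. Intervals cover counting error only.

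**Figure D1:**
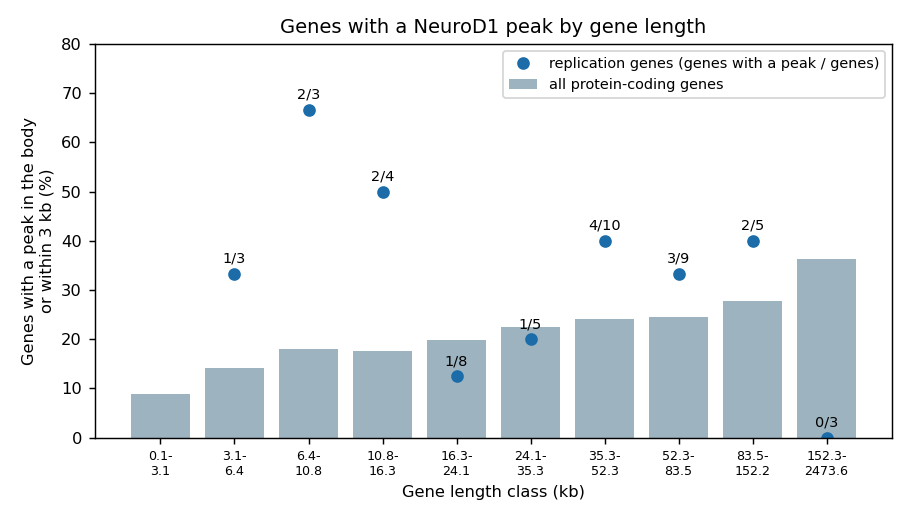
Share of genes with a NeuroD1 peak in the body or within 3 kb (y axis, percent) in 10 equal classes of gene length (x axis, kb). Bars show all protein-coding genes, which rise from 8.88% to 36.2%, and points show the replication genes with the number bound over the number in the class, from 2 of 3 at 6.43 to 10.8 kb, where 18.0% of all genes were bound, to 0 of 3 in the longest class.

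Bound genes are given here by role, where the share over all protein-coding genes of like length was 23.0%. The genes for origin firing had 4 of 7 bound (CDC45, CDC7, GINS3 and GINS4), the origin recognition complex 3 of 6 (ORC2, ORC5 and ORC6), and polymerases delta and epsilon 3 of 6 (POLE, POLE2 and POLE3). The replicative helicase had 2 of 6 bound (MCM4 and MCM7), the other MCM genes 1 of 3 (MCM9), polymerase alpha and primase 1 of 4 (POLA2), the fork protection genes 1 of 3 (TIPIN) and ribonucleotide reductase 1 of 2 (RRM2). No peak was called at the licensing genes CDC6, CDT1 and GMNN, the clamp loader genes RFC1, RFC2, RFC3, RFC4 and RFC5, RPA1, RPA2 and RPA3, or FEN1 and LIG1. The unbound genes of the other roles were MCM2, MCM3, MCM5, MCM6, MCM8, MCM10, ORC1, ORC3, ORC4, DBF4, GINS1, GINS2, POLA1, PRIM1, PRIM2, POLD1, POLD2, POLD3, TIMELESS, WDHD1 and RRM1. The groups hold 2 to 7 genes, so a count of 0 in one is no result about its role, and differences between roles were not tested.

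Polymerase epsilon extends the leading strand, and its catalytic subunit gene POLE had the highest peak of the 50 genes. The POLE peak, at chr12:132687243-132687635, was enriched 24.1-fold with a −log10 q of 57.0. At its summit lay 49 ChIP reads, with a 95% interval of 36.3 to 64.8 from the exact Poisson distribution, over a background of 1.04. At this background the read interval gives a fold enrichment between 17.9 and 31.7, and read intervals below are of the same kind. It ranked 48 of the 6183 peaks by fold enrichment and 76 by −log10 q, and its fold interval at this fixed background lay above those of the other peaks at these genes, of which the highest reached 16.5, while its read interval overlapped that of a peak in MCM9 described below. The peak spanned the start of POLE and that of PXMP2, a gene for a peroxisomal membrane protein that runs the other way, and its summit lay 149 bp upstream of POLE and 96 bp from PXMP2. Which of both genes the peak belongs to cannot be told apart.

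The accessory subunit genes had lower peaks. POLE3 codes for a small histone-fold subunit, and its peak at chr9:113410502-113410771 was enriched 9.16-fold (−log10 q 11.8) with 18 reads (10.7 to 28.4). The gene C9orf43 begins 120 bp from the summit, on the same side as the nearest start of POLE3, which is 48 bp away. POLE2 codes for the subunit next to the catalytic one, and its peak at chr14:49688083-49688297 was enriched 6.27-fold (−log10 q 5.21) with 12 reads (6.20 to 21.0), with the summit 32 bp downstream of the start. The POLE3 and POLE2 fold intervals (5.63 to 14.2 and 3.48 to 10.6) overlapped. The polymerase delta genes POLD1, POLD2 and POLD3 had their nearest peaks at 93.4, 137 and 267 kb. The remaining subunit genes, which belong to the list of 39 other replication genes described below, went the other way. POLD4 of polymerase delta had a peak over its start (6.75-fold, 13 reads), and POLE4 of polymerase epsilon had none within 37.7 kb.

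Of the origin firing genes, CDC45, CDC7 and GINS3 had low peaks near their starts. CDC45, the helicase cofactor, had 2 peaks at chr22:19479333-19479484 (5.31-fold, −log10 q 3.31, 10 reads) and chr22:19479632-19479859 (5.23-fold, −log10 q 4.77, 15 reads). Their summits lay 81 and 108 bp upstream of different annotated starts of CDC45. An edge of the body of UFD1 lay 192 bp from the summit of the former. Whether UFD1 begins or ends at this edge was not used here, so which of both genes the peaks belong to cannot be told apart. CDC7, the kinase gene, had a peak at chr1:91501275-91501451 enriched 6.09-fold (−log10 q 5.66) with 14 reads (7.65 to 23.5), 283 bp downstream of a start. A start of the non-coding RNA gene LOC105378856 also lay within 1 kb of this peak, so which of both genes it belongs to cannot be told apart. At GINS3 the peak at chr16:58392345-58392492 was enriched 5.79-fold (−log10 q 4.24) with 11 reads (5.49 to 19.7). These 3 genes lay below the median fold enrichment of all peaks. GINS4 had a peak at the low-coordinate end of its body at chr8:41529030-41529273 (6.75-fold, 13 reads), and another inside the gene at chr8:41543246-41543474 (7.71-fold, 15 reads), and the strand of GINS4 was not used here. The summit of the inner GINS4 peak also lay inside the non-coding RNA gene GPAT4-AS1.

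ORC binds origins, and 3 of its 6 subunit genes were bound at different places. At ORC2 the peak at chr2:200963570-200963782 covered the start, with its summit 13 bp upstream, enriched 6.75-fold (−log10 q 6.22) with 13 reads (6.92 to 22.2). At ORC6 the peak at chr16:46690159-46690304 lay inside the gene, 596 bp downstream of the start, enriched 5.98-fold (−log10 q 5.51) with 14 reads. The ORC5 peak at chr7:104126495-104126728 was at the far end of the gene, 252 bp from its end and 81420 bp from its start, enriched 8.68-fold (−log10 q 10.6) with 17 reads (9.90 to 27.2). The fold intervals of the 3 peaks overlapped. A start of the non-coding RNA gene LOC105373835 lay within 1 kb of the ORC2 peak, and a start of the gene VPS35 lay within 1 kb of the ORC6 peak. Which gene each of these peaks belongs to cannot be told apart. Exons and introns were not used here.

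The helicase genes MCM4 and MCM7 each had 1 peak, beside a neighbour. The MCM7 peak at chr7:100101465-100101618 (6.79-fold, −log10 q 7.03, 15 reads) lay 68 bp outside the gene, and its summit was 145 bp upstream of the MCM7 start and 101 bp from a start of AP4M1, an adaptor complex gene. The MCM4 peak at chr8:47960634-47961088 (5.23-fold, −log10 q 4.77, 15 reads) overlapped the low-coordinate end of the gene. An edge of the body of PRKDC, the catalytic subunit of DNA-dependent protein kinase, lay 607 bp from the MCM4 summit. Whether PRKDC begins or ends at this edge was not used here, so which of both genes the peak belongs to cannot be told apart. MCM9, a helicase gene of homologous recombination, held 2 peaks, both past the upper quartile of all peaks in fold enrichment (8.68). The peak at chr6:118912700-118912940 was enriched 11.7-fold (−log10 q 22.2) with 30 reads (20.2 to 42.8), 22321 bp inside the gene. The peak at chr6:118893911-118894213 was enriched 10.5-fold (−log10 q 18.6) with 27 reads (17.8 to 39.3), and its summit was 41 bp upstream of the start of ASF1A, a histone chaperone gene nested in MCM9. The MCM9 start itself had no peak within 1 kb.

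RRM2, the small subunit gene of ribonucleotide reductase, which makes the deoxyribonucleotides for DNA synthesis, had a peak at chr2:10122561-10122724 enriched 7.44-fold (−log10 q 8.78) with 17 reads (9.90 to 27.2). The summit lay 49 bp downstream of the outer of its 2 annotated starts. The sequence shown above is the window of the inner start, in which the summit is at position -122. TIPIN, which with TIMELESS protects stalled forks, had a peak at chr15:66356644-66356835 enriched 7.54-fold (−log10 q 8.50) with 16 reads (9.15 to 26.0). By the gene body this peak lay 20576 bp from the nearest end, but its summit was 82 bp upstream of an inner annotated start. POLA2, a polymerase alpha subunit gene, had a peak at chr11:65288806-65288971 enriched 6.36-fold (−log10 q 6.05) with 14 reads (7.65 to 23.5), 26964 bp downstream of its start.

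**Figure D2:**
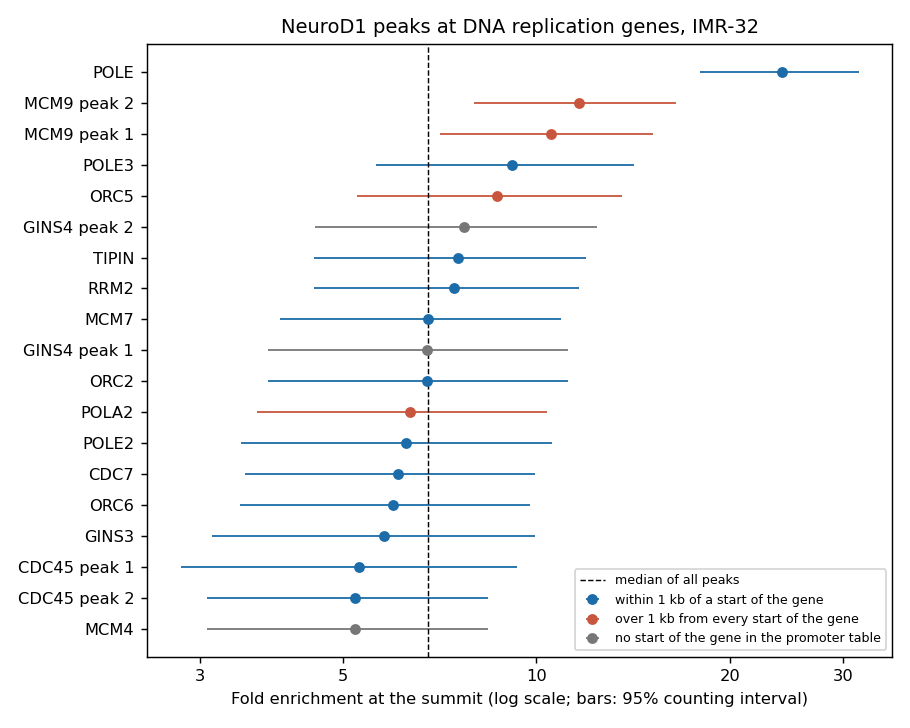
Fold enrichment at the summit (x axis, log scale) of the 19 peaks at 16 replication genes, with bars for the 95% counting interval at a fixed background, and colours for the distance to a start of the gene. POLE, at 24.1, stands alone, while the other 18 lie from 5.23 to 11.7 around the median of all peaks (6.79, dashed line).

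In height these peaks were close to the list as a whole. Their median fold enrichment was 6.75, against 6.79 for all 6183 peaks and 6.87 for the 2360 peaks within 1 kb of a protein-coding start. Their median −log10 q was 6.22, against 7.67 for all peaks, and 8 of the 19 were above the median fold enrichment. The highest peaks of POLE, MCM9 and POLE3 alone were past the upper quartile. Their backgrounds ran from 1.04 to 2, against a median of 1.31 over all peaks, so no peak at these genes lay in a stretch of raised background. Equal values, as at ORC2 and the outer GINS4 peak, arise because the reads are whole numbers and several peaks have the same background.

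Most of the bound genes carried the peak at a start. Of the 44 replication genes with a start in the promoter table, 11 had a peak within 1 kb of it (25.0%, exact interval 13.2% to 40.3%), and 15.6% of all 15843 protein-coding genes in the table did. The background again lay inside the interval. Among genes bound by the wider rule and present in the table, the peak was at a start in 11 of 14 replication genes (78.6%, 49.2% to 95.3%) and in 2471 of 3517 protein-coding genes (70.3%). In 9 of the 12 peaks concerned, the start lay inside the called peak, and the summits lay from 149 bp upstream (POLE) to 596 bp downstream (ORC6). GINS4 and MCM4 are not in the table.

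**Figure D3:**
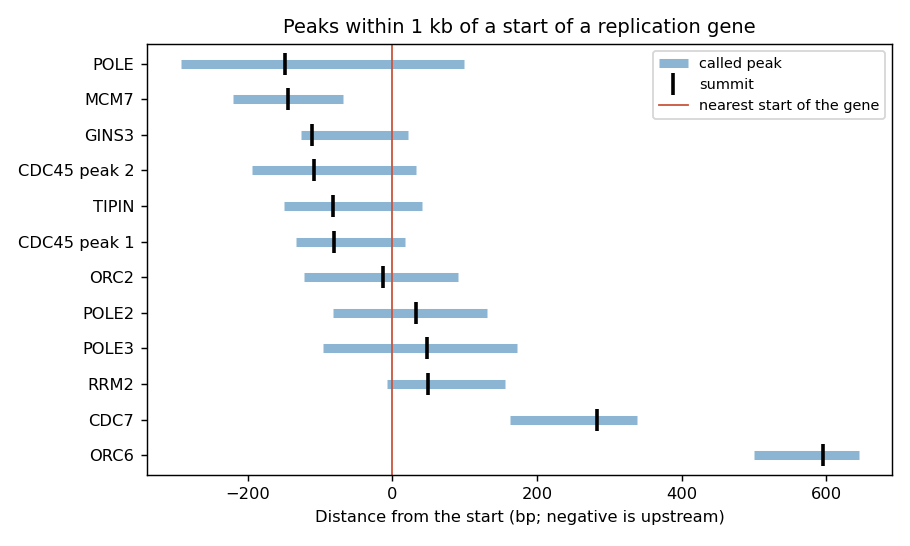
Called peaks (bars) and summits (black marks) of the 12 peaks within 1 kb of a start of a replication gene, by distance from the nearest start of that gene (x axis, bp, negative is upstream). The summits of POLE, MCM7, GINS3, CDC45, TIPIN and ORC2 lie upstream, from 13 to 149 bp, and those of POLE2, POLE3, RRM2, CDC7 and ORC6 lie downstream, from 32 to 596 bp.

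Among all genes, starts that face another protein-coding start had a peak more often. Of the 2149 protein-coding genes with a start on the other strand within 1 kb, 26.5% had a peak at a start (exact interval 24.7% to 28.4%), against 13.9% of the other 13694 (13.3% to 14.5%). Both genes of a facing pair were counted, and a single peak near both starts counted for each. The facing genes are therefore not independent, while the exact interval takes them as independent. A peak counted for a facing gene may also lie nearer the start of its partner. Of the replication genes, 5 of 14 with a facing start (35.7%, 12.8% to 64.9%) and 6 of 30 without (20%, 7.71% to 38.6%) had one, and these intervals overlapped. The 5 were MCM7, POLE, POLE3, ORC6 and TIPIN, of which TIPIN faces MAP2K1 at the outer start and was bound at the inner one. Only starts in the promoter table could count as facing, and 15843 of the 20037 protein-coding genes had one there. An edge of UFD1 lay 192 bp from a CDC45 summit, but the table gave UFD1 no start within 1 kb of the CDC45 peaks. CDC45 was therefore counted as without a facing start, and the split depends on the table. Counting only peaks whose nearest annotated start of any gene in the table was that of the replication gene left 10 of the 14 bound genes in the table. MCM7, MCM9, POLA2 and POLE were lost, since a start of AP4M1, ASF1A, LOC105369344 or PXMP2 was nearer. The nearest-start count was not made over all protein-coding genes, so this loss cannot be read as high or low.

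The unbound genes were mostly far from any peak. Their nearest peak lay at a median of 120 kb from the gene, from 4.43 kb at CDC6 to 1369 kb at RFC3. Just outside the limit of 3 kb were CDC6 at 4.43 kb (fold enrichment 6.38) and MCM2 at 7.30 kb (5.89), and no other unbound gene had a peak within 10 kb. Just inside it was MCM7, whose peak lay 68 bp beside the gene, and the other 15 bound genes had a peak that overlapped the body. No called summit had fewer than 8 reads, so a weaker site at an unbound gene was not detectable at this depth.

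A list of 39 other replication genes was set beside the 50, among them PCNA, the sliding clamp of the polymerases. Of these, 16 had a peak in the body or within 3 kb (41.0%, exact interval 25.6% to 57.9%), against 21.0% of protein-coding genes of like length. In the promoter table, 14 of 30 had a peak within 1 kb of a start (46.7%, 28.3% to 65.7%), and the background, 15.6%, lay below this interval as 21.0% did below the wider rule's. No test was made of this difference or of that between the lists, whose intervals overlapped. The 39 genes were chosen with earlier results of these data known, so an interval above the background is not evidence of more binding. The highest fold enrichments were at ASF1A (10.5, the peak nested in MCM9), the chromatin assembly gene CHAF1A (9.05), the origin firing gene TICRR (8.99), the topoisomerase gene TOP2A (8.60) and the fork repair gene MMS22L (7.85), all with summits from 41 to 98 bp upstream of a start. PCNA had a peak of 6.27-fold and 12 reads, with its summit 75 bp upstream. ETAA1, on chromosome 2, had 152 reads over a background of 36.5, a fold enrichment of 4.0 in a stretch of raised background. The other peaks of the list had backgrounds of at most 3.07.

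With the stricter limit of a −log10 q of at least 5, 13 of the 50 genes were bound (26.0%, 14.6% to 40.3%), and 17.2% of all protein-coding genes were. CDC45, GINS3 and MCM4 dropped out. The POLE peak and the 2 MCM9 peaks carried the highest values among the replication genes, while the 3 lost genes had the lowest fold enrichments of the bound genes.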

How the data were processed

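NeuroD1 ChIP-seq of IMR-32 cells was analysed from the deposited peak list of 1 ChIP library. The peak names show MACS3, while the submitters' processing notes list MACS2 2.2.7, BWA 0.7.17 and hg38. The control file and q cutoff are not given in the sources used here. The fold enrichment is the ratio of ChIP to local background coverage at the summit, with 1 added to each, as deposited by the authors. Per the file layout of MACS, the −log10 p and −log10 q deposited by the authors refer to the summit, from a Poisson test. The score deposited by the authors is 10 times the −log10 q, cut to a whole number, and the last deposited column is the fold enrichment over the peak width, and neither was used further.

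ChIP reads and background at each summit were solved from the deposited fold enrichment and −log10 p. The weight of 1 read (0.98) was the value that brought the solved coverages closest to whole reads, and 99.1% of peaks lay within 0.05 of a whole read. Of 497 simulated peaks, 98.4% had their exact number of reads recovered. The simulation used the same read weight and only low backgrounds, so it did not cover a peak such as that of ETAA1. Intervals are exact Poisson and Clopper-Pearson at 95%.

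Peaks were joined to RefSeq genes (GRCh38.p14) by an overlap of at least 1 base. The 50 symbols all matched, and 44 had a start in the promoter table, which also gave the strand. All protein-coding genes were split into 10 length classes. The genes and the list of 39 were chosen with earlier results of these data known. By the rule for named genes, all 50 were accounted for, and of the 39 the 5 with the highest fold enrichment were named, with PCNA, ETAA1, POLD4 and POLE4 added after their values were seen. The E2F search and the comparison of facing starts were also added then. Alternatives were stricter peaks, summits, other distances, 200 genes nearest in length, other E-boxes and the nearest start. Calculations were made in Python 3.11.15 with scipy 1.17.1, pandas 2.3.3 and numpy 2.4.6, and plots were drawn with matplotlib 3.10.9.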

Additional observations from a re-analysis of the deposited data

How the results depend on the processing

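The number of bound replication genes was 16 at 3 kb and lay from 13 to 18 when peaks were limited to a −log10 q or a fold of 5 or more, when the summit alone counted, and at distances of 0, 1 and 10 kb. At 10 kb CDC6 and MCM2 were added, and with the gene body alone MCM7 was lost. The share of all protein-coding genes lay from 16.0% to 25.1% and the share weighted to gene length from 17.4% to 26.6% under these settings, and it was 23.3% with the 200 genes nearest in length. In each of these settings the weighted share lay inside the 95% exact interval of the replication genes, except with the gene body alone, where 30% were bound (17.9% to 44.6%) against 17.4%. The number with a peak near a start stayed at 11 with 0.5 kb, 3 kb or the summit and was 9 with the stricter q. The number of the 39 other genes was 14 with the stricter q and 12 with the gene body alone. Among the E-box forms, the share of 50% for CANNTG was 7.14% for CAGCTG and 0% for CAGATG, as fewer sequences match. The nearest-start setting, chosen after the data were seen, gave 10 genes in place of 14, and no share over all protein-coding genes was computed for it. No paired analysis was possible because the only ChIP library has no partner. The 10 to 30 reads at the summits other than that of POLE limit the order of the peaks.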
